A study of Zea mays with 4 samples.

Results

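Transcripts of 4 class III peroxidases (PER1, PER2, PER42 and PER66) and 1 laccase (LAC1) were followed in young maize internodes. They were chosen by enzyme family and not by their values, though with earlier results of these data known. The annotation of the array pairs each of the 5 genes with exactly 1 probe set. Thus 5 of the 17734 probe sets on the array, and 5 of the 1108 genes paired with one, are described. Of these, 2 were measurable in the internode, PER1 and PER42, and neither differed between the CCR mutant and WS beyond the spread between arrays.

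Class III peroxidases are secreted heme enzymes that use hydrogen peroxide to oxidise phenolic compounds. Laccases are copper enzymes of the cell wall that do the same with oxygen. Both families act at the last step of lignin formation: they turn monolignols, the alcohols delivered by the pathway in which cinnamoyl-CoA reductase (CCR) works, into radicals that couple into the polymer. Both are large families in plants, and their members can stand in for one another, so a single gene of either family rarely accounts for all of the activity in a tissue.

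The samples were piled-up young internodes of plants with 6 to 7 leaves, kept at 25 °C in the day and 22 °C at night with 16 h of light. One group was the CCR mutant, in which CCR is downregulated (the allele is not named in the labels), with 2 samples, each a single RNA extract of 144 or 182 µg and no treatment recorded. The other group was named WS, a term that the labels do not explain, also with 2 samples. Each WS sample was a pool of its own extract (185 or 215 µg) and 3 other extracts of 1 µg each, and its record carries a drought entry of 36 h at an REW of 20 to 30%. Each sample was hybridised to 1 Affymetrix maize array. Genotype, pooling and the recorded treatment therefore cannot be told apart in any difference given here. Whether the 2 samples of a group are separate plants is not stated, and the p-values below therefore reflect only how far these arrays scatter, a scatter that may be technical. As these are bulk samples, fewer cells of a type and less RNA per cell cannot be told apart either.

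The 2 named CCR genes, cncr1 and cncr2, were examined first. As the labels name no allele, which gene carries the mutation is not known here. The transcript of cncr1 was the brighter of the 2 CCR genes. Its log2 values were 10.99 and 10.13 on the WS arrays against 8.59 and 9.14 on the mutant arrays. Both mutant arrays thus lay below both WS arrays, but the groups were apart in 36.5% of all tested probe sets. Such a separation was therefore common on these arrays and does not by itself show a lowered CCR transcript. The difference of cncr1 was -1.70 (SE 0.38) with a limma adjusted p of 0.68, and it did not pass over all tested probe sets. Markers of the tissue were bright in both groups. All 4 genes of secondary wall synthesis (CesA10, CesA11, CesA12 and bk2), all 8 photosynthetic leaf markers and all 8 markers of meristem and dividing cells stayed above a log2 value of 4 on every array. The array medians of these lists ranged from 10.01 to 10.42 for the secondary wall, from 11.98 to 12.32 for leaf and from 8.71 to 9.08 for meristem. The median difference, CCR mutant minus WS, was 0.12 for the leaf markers, with 7 of 8 higher. For the meristem markers it was -0.29, with 6 of 8 lower. Over all 11085 tested probe sets it was -0.05, with 4139 higher and 6946 lower. The leaf array medians overlapped between groups, at 12.265 and 11.98 on the WS arrays against 12.195 and 12.32 on the mutant arrays. Groups were apart in 0 of 8 leaf markers and 2 of 8 meristem markers, against 36.5% of all tested probe sets. In either list 0 passed, against 0.153% of all tested probe sets.

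Whether a member could be measured was judged against control probe sets designed for reporter genes of other organisms. Of 66 such probe sets, 65 stayed at or below 3.43 on every array and 1 was bright (up to 13.77). A log2 value of 4 on at least 2 of the 4 arrays was required for a test. PER1 and PER42 passed on all 4 arrays, while PER2, PER66 and LAC1 passed on none. Fixing the level at 6 also gave 2 members, and fixing it at 3.43, a choice made after seeing the data, gave 3, with PER2 added. The annotation does not name most of the array, so this count is one of named genes: RefSeq lists 5 maize peroxidase genes under PRX names, of which 4 are paired with a probe set here, and 5 laccase genes under lac names, of which 1 is.

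**Figure D1:**
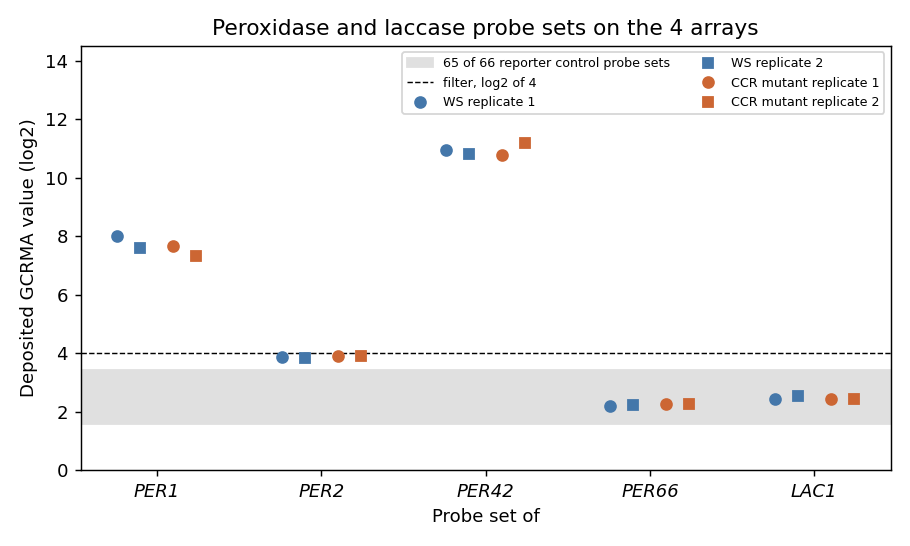
Deposited log2 values of the 5 probe sets on each array, with WS in blue, CCR mutant in orange, circles for replicate 1 and squares for replicate 2. The grey band spans the values of 65 of the 66 reporter probe sets and the dashed line is the filter at 4. PER42 lay between 10.77 and 11.19 and PER1 between 7.33 and 7.99, PER2 between 3.85 and 3.92, and PER66 and LAC1 inside the reporter band.

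PER1 (gene 542029, probe set Zm.4338.2.S1_at) carries the synonym pmPOX1 in RefSeq, which stands for a peroxidase of the plasma membrane fraction. Its log2 values were 7.99 and 7.58 on the WS arrays against 7.67 and 7.33 on the mutant arrays. The highest array was WS replicate 1 and the lowest CCR mutant replicate 2, and the groups overlapped, since CCR mutant replicate 1 was above WS replicate 2. The means were 7.79 ± 0.29 and 7.50 ± 0.24 (SD, n = 2 each), and the difference, CCR mutant minus WS, was -0.29 (SE 0.21, 95% confidence interval -0.88 to 0.31). On the linear scale the mutant had 82.1% of the WS level, with an interval from 54.3% to 124%. With limma the adjusted p was 0.813 (unadjusted 0.248), so PER1 did not pass; 0 of the 2 tested members did, and 0.153% of all tested probe sets.

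The gap between the arrays of one group was larger than that between the groups. Within WS the replicates of PER1 differed by 0.41 and within the CCR mutant by 0.34, in both cases with replicate 1 above replicate 2. Comparing arrays of the same replicate number, the mutant was lower by 0.32 for replicate 1 (7.67 against 7.99) and by 0.25 for replicate 2 (7.33 against 7.58). The size of the difference depended on single arrays: leaving out WS replicate 1 gave -0.08 and leaving out WS replicate 2 gave -0.49, while it was -0.46 with CCR mutant replicate 1 removed and -0.12 with CCR mutant replicate 2 removed. Among all tested probe sets, 15.5% had a difference at least as large in size as that of PER1.

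PER42 (gene 100101533, probe set Zm.1616.1.A1_at), with the RefSeq synonym pmPOX3-1, was far above background. Its log2 values were 10.93 and 10.79 on the WS arrays against 10.77 and 11.19 on the mutant arrays. The mutant arrays enclosed both WS arrays, with CCR mutant replicate 1 the lowest and CCR mutant replicate 2 the highest of the 4. The means were 10.86 ± 0.10 and 10.98 ± 0.30 (SD, n = 2 each). The mutant mean was higher by 0.12 (SE 0.18), and the 95% confidence interval ran from -0.39 to 0.63. The mutant level was 109% of that in WS, with an interval from 76.4% to 155%, and the limma adjusted p was 0.901 (unadjusted 0.538). The groups were thus apart in 0 of the 2 tested members, against 36.5% of all tested probe sets. The sign rested on 1 array: without CCR mutant replicate 2 the difference was -0.09, without CCR mutant replicate 1 it was 0.33, and without WS replicate 1 or 2 it was 0.19 or 0.05.

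PER1 and PER42 were also set against each other, as members of one family with differences of opposite sign. The value of PER42 minus PER1 within an array was 2.94 and 3.21 on the WS arrays against 3.10 and 3.86 on the mutant arrays. These values overlapped between the groups. The difference between the groups in this quantity was 0.41, with a two-sided exact permutation p of 0.667, where 2 arrays against 2 cannot give a p below 0.333. With that limit the test says nothing on whether the 2 genes responded alike, and the pair was compared after their signs were seen.

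**Figure D2:**
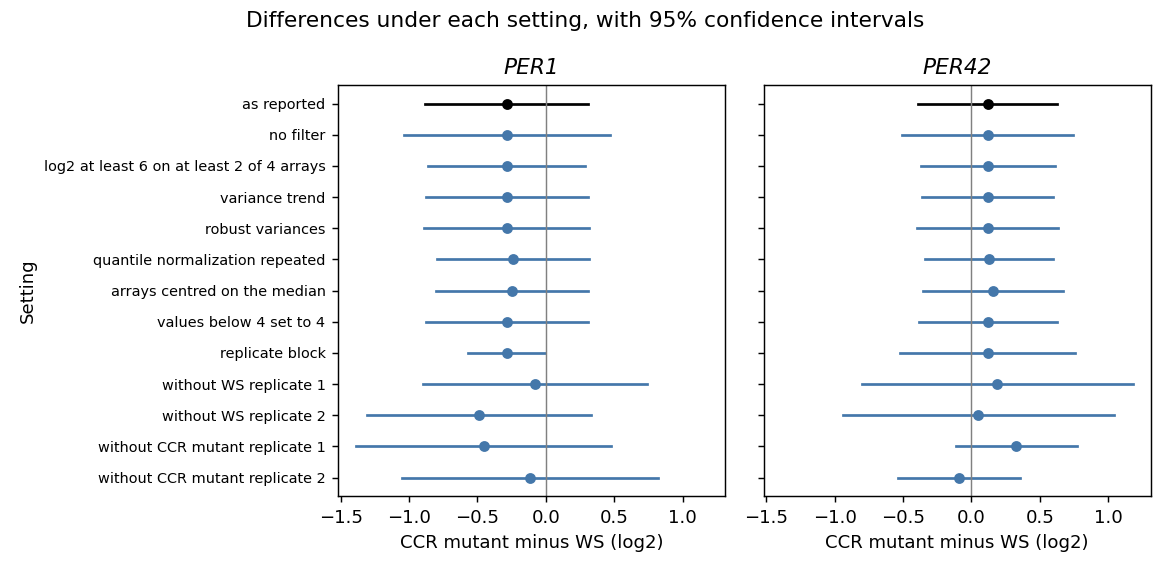
Difference of PER1 (left) and PER42 (right), CCR mutant minus WS on the log2 scale, as reported (black) and under each alternative setting (blue), with 95% confidence intervals as horizontal lines. PER1 stayed below 0, from -0.49 to -0.08, and PER42 ranged from -0.09 to 0.33, crossing 0 without CCR mutant replicate 2.

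The remaining peroxidases and the laccase were below the filter, and their values had almost no spread. PER2 (gene 542571, probe set Zm.315.1.A1_at), with the RefSeq synonym pmPOX2, had 3.87 and 3.85 on the WS arrays against 3.89 and 3.92 on the mutant arrays. It was above 65 of the 66 reporter probe sets on every array but below 4 on all of them. PER66 (gene 541674, probe set Zm.405.1.A1_at), with the synonym pmPOX3-2, had 2.21 and 2.22 on the WS arrays against 2.28 and 2.26 on the mutant arrays, inside the range of the reporters. LAC1 (gene 606456, probe set Zm.5757.1.A1_at), the laccase, had 2.43 and 2.55 in WS and 2.42 on both CCR mutant arrays, also inside that range. These 3 genes were not tested, and no fold change is given for them. PER66 and LAC1 were not detectable above the background of these arrays, which does not show that their transcripts were absent. PER2 lay between the reporter range and the filter.

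In all 3 of these genes the groups did not overlap: PER2 and PER66 were higher in the CCR mutant, by 0.045 and 0.055, and LAC1 was lower, with a difference of -0.07. The same small upward step ran through the dim end of the arrays. Among the 6470 probe sets below the filter, 85.1% did not overlap and were higher in the CCR mutant, and the median difference over all 6470 was 0.03. Of the 66 reporter probe sets, 65 did the same, and the median over all 66 was 0.035. PER2 and PER66 thus moved with the dim probe sets as a whole. LAC1 went the other way, as did 1.38% of the dim probe sets, and its difference came from WS replicate 2 alone: without that array it was -0.01. The range over the 4 arrays was 0.07 for PER2 and PER66 and 0.13 for LAC1, and 77.7% of the dim probe sets had a range of at most 0.1.

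**Figure D3:**
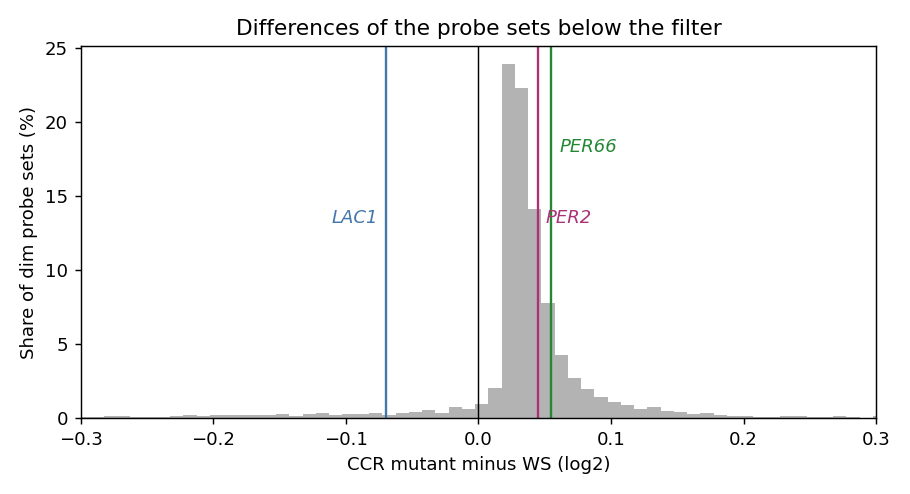
Distribution of the difference CCR mutant minus WS (log2) over the 6470 probe sets below the filter, as a share of them in percent, with PER2, PER66 and LAC1 as coloured lines; 278 probe sets lie beyond the plotted limits of -0.3 and 0.3. Most of the distribution sits just above 0, with a median of 0.03, and PER2 and PER66 lie within this peak while LAC1 lies to its left at -0.07.

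The genes that supply substrates to these enzymes were examined next. Of the 5 measured genes of monolignol synthesis, 1 had a higher and 4 a lower value in the CCR mutant, 0 passed over all tested probe sets and the median difference was -0.08, beside -0.05 over all 11085 tested probe sets, of which 4139 were higher, 6946 lower and 0.153% passed. Leaving out WS replicate 1 turned the median of the list to 0.17 and leaving out CCR mutant replicate 1 to 0.005, while it was -0.32 with WS replicate 2 removed and -0.16 with CCR mutant replicate 2 removed. The extremes were cncr1, given above, and 4CL (4-coumarate-CoA ligase, which activates the acids that CCR reduces). The log2 values of 4CL were 11.09 and 10.45 on the WS arrays against 10.78 and 10.83 on the mutant arrays, where both mutant arrays fell between the WS arrays, and the difference was 0.04 (SE 0.25).

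Hydrogen peroxide, the other substrate of peroxidases, is made and removed by further enzymes. Of 8 such genes outside class III (catalases, ascorbate peroxidase, superoxide dismutases and an NADPH oxidase), 7 were tested; cat2, a catalase gene, was at background with values from 2.24 to 2.32. Of the 7, 4 were higher, 2 lower and sod2, a superoxide dismutase gene, had a difference of 0.00. Of all 11085 tested probe sets, 4139 were higher and 6946 lower, with a median of -0.05. Groups were apart in 1 of the 7, against 36.5% of all tested probe sets. This was sod3, with 12.11 and 12.13 on the WS arrays against 12.27 and 12.24 on the mutant arrays. The median of the list was 0.10, 0 passed with limma, and 0 had an unadjusted p under 0.05. That median was -0.14 without WS replicate 2 and -0.03 without CCR mutant replicate 2. The lowest difference was that of apx2, an ascorbate peroxidase that removes peroxide inside cells, with 9.62 and 9.71 on the WS arrays against 9.39 and 9.67 on the mutant arrays, which overlap (difference -0.13, SE 0.13). The highest was that of Sod4A, a superoxide dismutase that produces peroxide, with 10.67 and 9.92 on the WS arrays against 10.45 and 10.61 on the mutant arrays, which also overlap (difference 0.23, SE 0.29). The NADPH oxidase rbohB had 7.57 and 6.85 against 7.46 and 7.27.

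Secondary walls are where lignin is laid down. Of the 4 genes of that list 1 was higher, 3 were lower and 0 passed. Of all 11085 tested probe sets, 4139 were higher and 6946 lower. The median difference of the list was -0.18, against -0.05 over all tested probe sets. Its sign and size depended on single arrays, at 0.02 without WS replicate 1, -0.37 without WS replicate 2, -0.005 once CCR mutant replicate 1 was removed and -0.36 once CCR mutant replicate 2 was removed. Beside it, the leaf markers had a median of 0.12 (7 of 8 higher, with the groups overlapping in every one). The meristem markers had one of -0.29 (6 of 8 lower). The part of either list in the values of the secondary wall list was not tested. The lowest difference was that of bk2 (brittle stalk2, a COBRA-like gene needed for stem strength), with 10.25 and 9.98 on the WS arrays against 9.68 and 10.02 on the mutant arrays (difference -0.27, SE 0.17). The highest was that of CesA12, a cellulose synthase of secondary walls, with 10.23 and 9.87 on the WS arrays against 9.92 and 10.39 on the mutant arrays (difference 0.11, SE 0.23). In both genes the groups overlapped.

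**Figure D4:**
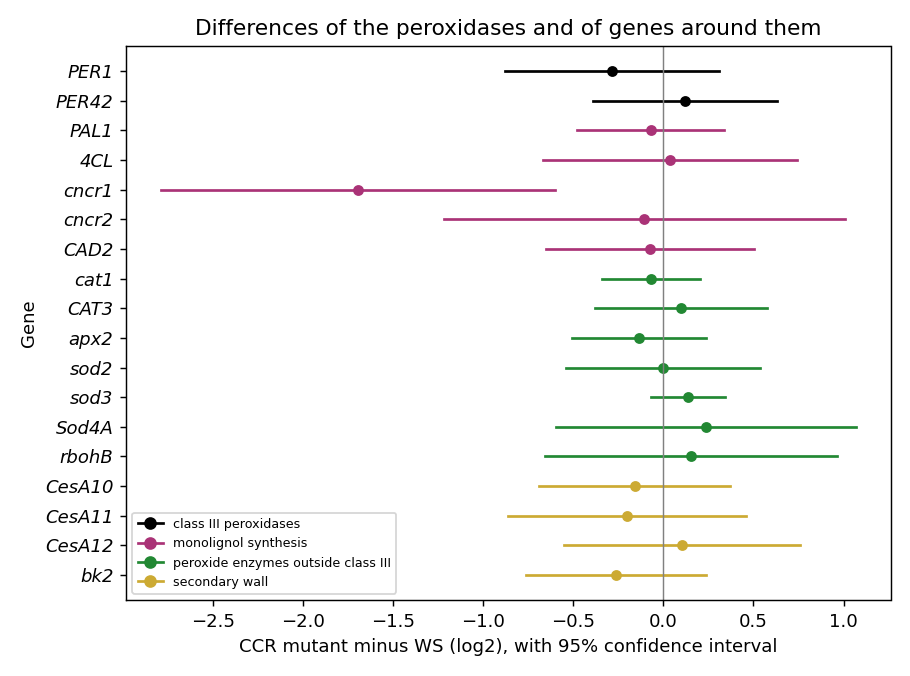
Difference, CCR mutant minus WS on the log2 scale, of PER1, PER42 and the tested genes of the 3 lists, with the 95% confidence interval from the limma fit as a horizontal line. The interval includes 0 for both peroxidases and for every listed gene other than cncr1, whose point is at -1.70. The intervals are not adjusted for the number of tests, and cncr1 did not pass after adjustment. Of all 11085 tested probe sets, 713 had an unadjusted limma p under 0.05.

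The genes whose values ran most like those of PER1 over the 4 arrays were glutathione transferase genes, enzymes that join glutathione to reactive compounds. Over 247 candidate probe sets with a named gene and a range of at least 0.5, the highest Pearson correlations were those of gst12 (r = 0.996) and gst9 (r = 0.988). The values of gst12 were 12.03 and 11.62 on the WS arrays against 11.68 and 11.41 on the mutant arrays, the same order of arrays as in PER1. Those of gst9 were 10.61 and 9.97 on the WS arrays against 10.02 and 9.30 on the mutant arrays. With 4 arrays such values are common: r was over 0.95 for 9 of the 247 candidates, and for 148 of all 2682 tested probe sets with that range, PER1 not counted. PER42 varied by 0.42 over the arrays, less than the range required, so no such genes are given for it.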

How the data were processed

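The deposited values are log2 values; the submitters' processing notes name GCRMA, with no version, as what the authors used. GCRMA corrects background by probe base composition, equalises arrays by quantiles and returns 1 value per probe set. The log2 base is inferred from the range (1.12 to 14.1). They were not normalized again.

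Control probe sets (179, of which 66 for reporter genes) were left out. Testing required 2 or more arrays with a log2 value of 4 or higher (11085 of 17555 probe sets). Tests used limma 3.58.1 (lmFit, eBayes) in R 4.3.3 with Benjamini-Hochberg adjustment over all tested probe sets and a threshold of 0.05, with 2 residual and 1.70 prior degrees of freedom; 17 passed (9 higher, 8 lower in the CCR mutant). The script was tested on simulated data. Signal over background and the number of arrays limit the precision.

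Genes come from the 2007 platform annotation, with names from RefSeq (Zm-B73-REFERENCE-NAM-5.0) by gene identifier. No build is given for the array, so no coordinates are printed; protein sequences were not analysed here. The name per-1, close to PER1, belongs to gene 100037830, and RefSeq also uses the synonym Lac1 for a second laccase gene. Neither is a member. Lists were matched by name, using for each gene the probe set with the highest mean.

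The members and lists were chosen with earlier results of these data known. Named genes are all members, the lowest and highest difference of each list, cncr1, and the 2 named genes most like a member over the arrays. The genes cncr2, cat2, sod2, sod3 and rbohB were chosen after their values were seen. Alternatives were other filters, variance models and scalings, a floor at 4, the replicate block and leaving out each array.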

Additional observations from a re-analysis of the deposited data

How the results depend on the processing

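PER1 kept its sign, and stayed above the threshold, under all 12 alternatives, with differences from -0.49 to -0.08 (leaving out an array gave both ends). PER42 did so under 11 and took the other sign without CCR mutant replicate 2 (-0.09; 0.33 without CCR mutant replicate 1). The count of passing probe sets, 17, was 9 with no filter, 0 with the replicate block and 0 with any array left out. The labels do not say that the replicate number pairs the samples, and 2 pairs are too few to tell (correlation of deviations 0.35); with the replicate block PER1 was at -0.29 with an interval of -0.56 to -0.01 (limma adjusted p = 0.709) and PER42 at 0.12 (limma adjusted p = 0.889). For members below the filter, PER2 and PER66 were at 0.010 and 0.014 after repeated quantile normalization, at 0.085 and 0.095 with arrays centred on their medians, and at 0 with values below 4 set to 4, as was LAC1 (0); LAC1 ranged from -0.13 to -0.01 with an array left out. With an array left out the median of the peroxide enzyme list ranged from -0.14 to 0.13, that of monolignol synthesis from -0.32 to 0.17 and that of the secondary wall list from -0.37 to 0.02. The number of members above background was 0 against the brightest reporter probe set. The share of tested probe sets higher in the CCR mutant was 37.3%, and 48.7% with arrays centred on their medians. The cause of these changes was not tested.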

Other observations

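In the array's numbering the probe set of PER1 is 1 of 4 whose identifiers begin with Zm.4338, and the other 3 are unnamed here. Zm.4338.1.A1_at had log2 values of 10.32 and 9.92 on the WS arrays against 10.25 and 10.62 on the mutant arrays, a difference of 0.32 (SE 0.21, limma adjusted p = 0.809). Its groups overlapped, and CCR mutant replicate 2, the lowest array for PER1, was its highest. The other 2, Zm.4338.3.A1_at and Zm.4338.3.S1_at, were at background, between 2.50 and 2.62 and between 2.19 and 2.25. These probe sets were picked for their identifiers after the values were seen, and no gene is assigned to them.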
